A study of Mus musculus with 18 samples.

Results

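Vwf, Itga2b, Itgb3, Gp1bb, Pf4 and Selp, genes best known from megakaryocytes and the platelets they shed, were followed across blood stem and progenitor cells. They were taken by symbol from a table of 14419 genes, which held all 6. The cells came from bone marrow. The donors were adult C57BL/6 males that received either corn oil, the vehicle, or tamoxifen, which acts on estrogen receptors as an agonist or antagonist depending on the tissue. The populations are called LT-HSC, ST-HSC and MPP in the series' design, the usual names of haematopoietic stem cells with long-term or short-term repopulating ability and of multipotent progenitors, and they are written LT, ST and MPP here. The 6 groups were MPP oil and MPP tamoxifen after 1 week of treatment, and LT oil, LT tamoxifen, ST oil and ST tamoxifen after 2 weeks, with 3 libraries each. No group carried a transgene or an engineered allele in the labels. The sources used here do not give the dose and route of tamoxifen, the sorting gates or the number of mice behind a library. The design calls the libraries biological replicates, and should several share a mouse, the p-values would measure only the spread between libraries, which may be technical. Since MPPs came after 1 week and LT and ST cells after 2 weeks, population and duration of treatment cannot be told apart in any comparison with MPPs.

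Megakaryocytes are large bone marrow cells that shed platelets, and they arise from haematopoietic stem cells. Vwf encodes von Willebrand factor, a large multimer that tethers platelets to an injured vessel wall, and part of the mouse stem cell compartment is known to transcribe it. Gp1bb encodes a subunit of the GPIb-IX-V complex, the platelet receptor for von Willebrand factor. Itga2b (CD41) and Itgb3 (CD61) encode the subunits of the fibrinogen receptor, by which activated platelets stick together. Pf4 encodes a chemokine stored in alpha granules, and Selp encodes P-selectin, an adhesion receptor that moves from granules to the cell surface. Transcription factors of the GATA and ETS families drive many megakaryocyte genes, and estrogen receptors bind response elements with the core GGTCA.

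The 250 bases before the start site are shown for Selp, the only one of the 6 whose difference between tamoxifen and oil passed the test, and for Pf4 and Itga2b, whose levels varied together between libraries. They come from RefSeq on the GRCm38.p6 build, which listed 4 of the 6 genes. Each runs 5′ to 3′ on the gene's own strand and ends at the base before the start site. Capitals mark the GATA core, the ETS motif AGGAAG and the response element core GGTCA on either strand, so their reverse complements are in capitals too.
Selp, chr1:164115014-164115263, plus strand: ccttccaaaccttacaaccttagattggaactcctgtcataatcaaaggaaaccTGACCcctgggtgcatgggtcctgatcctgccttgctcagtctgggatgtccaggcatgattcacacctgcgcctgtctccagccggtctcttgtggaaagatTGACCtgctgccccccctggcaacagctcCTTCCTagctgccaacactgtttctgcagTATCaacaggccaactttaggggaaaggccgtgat
Pf4, chr5:90772185-90772434, plus strand: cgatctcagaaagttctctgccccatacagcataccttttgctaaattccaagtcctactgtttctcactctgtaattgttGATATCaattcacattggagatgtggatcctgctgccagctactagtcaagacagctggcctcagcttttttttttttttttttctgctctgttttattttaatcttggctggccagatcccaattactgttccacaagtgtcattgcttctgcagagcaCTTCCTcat
Itga2b, chr11:102469884-102470133, minus strand: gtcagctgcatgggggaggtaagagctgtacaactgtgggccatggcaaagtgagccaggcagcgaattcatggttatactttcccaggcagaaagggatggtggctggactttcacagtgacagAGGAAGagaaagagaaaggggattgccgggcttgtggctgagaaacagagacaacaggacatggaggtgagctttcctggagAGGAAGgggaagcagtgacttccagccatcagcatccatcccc
The Selp stretch held 2 matches to GGTCA, 1 to AGGAAG and 1 to GATA. The Pf4 stretch held 1 match to AGGAAG and 2 overlapping matches to GATA, since GATATC reads the same on both strands. The Itga2b stretch held 2 matches to AGGAAG and none to the other letters. Such matches are common: of 32851 RefSeq promoters cut to the same length, 53.6% held GATA, 29.5% AGGAAG and 35.2% GGTCA on either strand. The full palindromic response element GGTCANNNTGACC occurred in 0.064% of promoters and in none of the 4 genes. The matches are descriptions of sequence, not sites of binding.

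Values are the deposited normalised signal on a linear scale, on which 1 read was worth 0.203 to 0.331 and a gene without reads stands at 0.102 to 0.166. The libraries held 2728800 (ST oil A) to 5279821 (MPP tamoxifen 1) reads in listed genes. LT tamoxifen A stood apart: mitochondrial ribosomal RNA took 25.45% of its reads, against 17.7% to 18.7% in the other 5 LT libraries and 18.3% to 24.4% in MPPs and ST cells. Marker genes were checked against the labels. Slamf1 (CD150), a stem cell surface marker, averaged 25.5 ± 6.35 in LT oil, 19.1 ± 9.57 in ST oil and 0.785 ± 0.455 in MPP oil (SD, n = 3). Flt3, a receptor of multipotent progenitors, averaged 83.1 ± 34.4, 142 ± 52.3 and 681 ± 31.0 in the same order. Cd48, which stem cells with long-term potential lack, averaged 11.2 ± 3.58, 99.6 ± 15.3 and 72.0 ± 9.32.

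**Figure D1:**
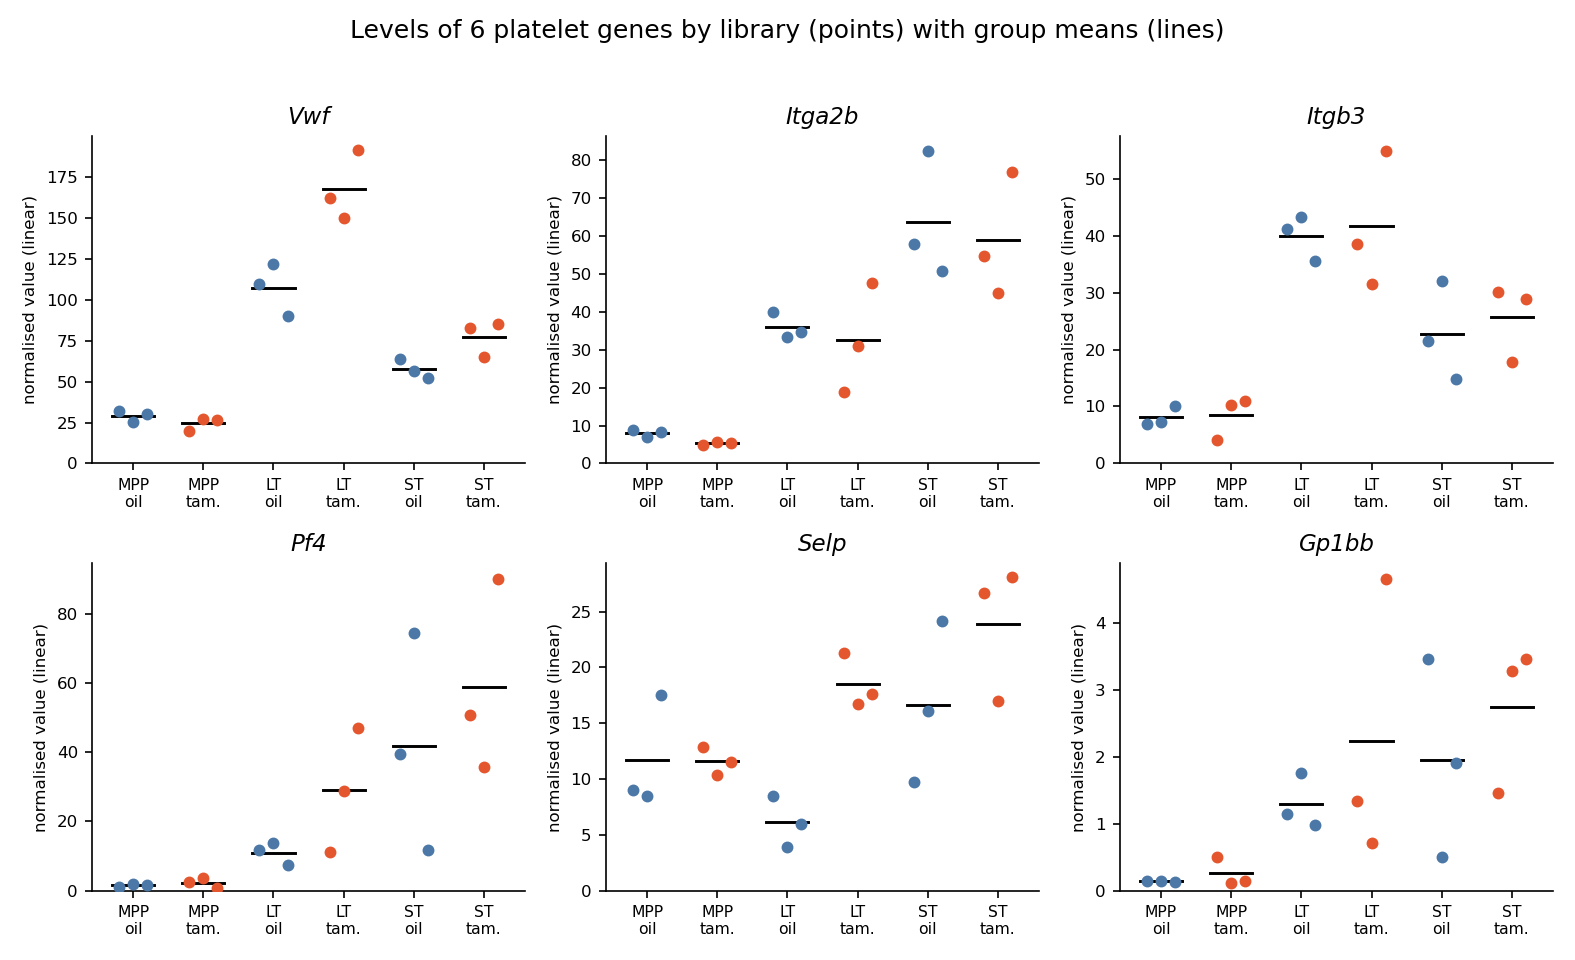
Normalised value (linear, 1 scale per gene) of each of the 6 genes in every library, by group; points are libraries, blue for oil and red for tamoxifen, and lines are the means of 3. Vwf was highest in LT cells and Itga2b in ST cells, and for Selp the 3 LT oil libraries, 3.90 to 8.44, were the lowest of the 18.

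In oil-treated mice 5 of the 6 genes were lowest in MPPs, and the exception was Selp, which was lowest in LT cells. Vwf and Itgb3 were highest in LT cells, whereas Itga2b, Pf4 and Selp had their highest means in ST cells. By limma over all 14419 genes, with Benjamini-Hochberg adjustment at a threshold of 0.05, 4 of the 6 differed between ST and LT cells (Vwf and Itgb3 lower, Itga2b and Selp higher in ST), against 28.5% of all genes. Between MPPs and LT cells 4 differed (Vwf, Itga2b, Itgb3 and Pf4, all lower in MPPs), against 14.8% of all genes, and between MPPs and ST cells 5 differed (all but Selp, lower in MPPs), against 30.7%. The 3 comparisons share their groups pairwise, so they are not independent. The libraries are bulk RNA, so a smaller share of expressing cells and less RNA per expressing cell cannot be told apart in any of these differences.

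Vwf stood at 32.0, 25.1 and 30.2 in the MPP oil libraries, at 109, 122 and 89.8 in LT oil, and at 64.0, 56.2 and 52.0 in ST oil. The 3 populations did not overlap, and LT oil was 1.86 times ST oil and 3.67 times MPP oil. By limma the log2 difference was -0.88 (SE 0.16, adjusted p = 0.000187) between ST and LT cells and -1.84 (SE 0.16, adjusted p = 3.24e-09) between MPPs and LT cells. Between MPPs and ST cells it was -0.96 (SE 0.16, adjusted p = 6.33e-05). The calls for Vwf held under every alternative run, 20 for ST against LT cells and 19 for each comparison with MPPs.

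The integrin subunits, which pair in 1 receptor, differed in where their RNA was highest. Itga2b stood at 8.78, 7.02 and 8.32 in MPP oil, at 39.9, 33.2 and 34.7 in LT oil, and at 57.8, 82.3 and 50.9 in ST oil. Every ST oil library was above every LT oil library, and the log2 difference was 0.78 (95% CI 0.26 to 1.30, limma adjusted p = 0.0212). That call was lost without ST oil B (adjusted p = 0.138), LT oil B (0.0738) or LT oil C (0.0634). Itgb3 stood at 6.89, 7.30 and 10.2 in MPP oil, at 41.2, 43.2 and 35.5 in LT oil, and at 21.6, 32.0 and 14.8 in ST oil. Here every ST oil library was below every LT oil library, with a log2 difference of -0.84 (95% CI -1.47 to -0.22, limma adjusted p = 0.0378). The Itgb3 call was the less stable, holding under 14 of 20 alternatives. It was lost without LT oil A (adjusted p = 0.0953), LT oil B (0.110), LT oil C (0.0587), ST oil A (0.0881) or ST oil C (0.187), and without limma's trend and robust settings (0.0732). In MPPs both subunits were lower than in LT cells, by log2 differences of -2.03 for Itga2b (limma adjusted p = 1.07e-06) and -2.18 for Itgb3 (8.77e-06), and these calls held under all 19 alternatives. Against ST cells the MPP differences were -2.81 for Itga2b (limma adjusted p = 1.47e-08) and -1.34 for Itgb3 (0.00153), also called under all 19.

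Pf4 had the widest range. It stood at 0.946, 1.86 and 1.72 in MPP oil, on 3 to 6 reads per library, at 11.6, 13.6 and 7.38 in LT oil, and at 39.3, 74.4 and 11.6 in ST oil. ST oil overlapped LT oil because library C was far below the other ST oil libraries, and the ST minus LT log2 difference of 1.55 did not pass (95% CI 0.20 to 2.89, limma adjusted p = 0.0812). Of 20 alternatives 4 called it, among them edgeR (1.96, adjusted p = 0.0372) and DESeq2 (1.97, 0.0192) on recovered reads and the limma fit without ST oil C (2.26, 0.00409). MPPs lay below ST cells by a log2 difference of -3.77 (95% CI -5.11 to -2.43, limma adjusted p = 0.000408), and below LT cells by -2.22 (95% CI -3.56 to -0.88, 0.0266). The MPP to LT call held under 11 of 19 alternatives. It was lost without any 1 of the 3 MPP oil libraries (adjusted p = 0.0984, 0.0633 and 0.0681) and without LT oil A (0.0773) or LT oil B (0.0992). With a pseudocount of 5 its log2 difference was -1.27 (adjusted p = 0.139), edgeR on recovered reads gave -2.95 (0.0591), and with a replicate block, which assumes that libraries with 1 label belong together, the limma adjusted p was 0.123.

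Selp was lowest in LT cells. It stood at 9.05, 8.45 and 17.6 in MPP oil, at 8.44, 3.90 and 5.99 in LT oil, and at 9.71, 16.1 and 24.2 in ST oil. No LT oil library reached the lowest library of either other population (8.44 in LT oil A against 8.45 in MPP oil 2). ST oil exceeded LT oil by a log2 difference of 1.28 (95% CI 0.64 to 1.91, limma adjusted p = 0.00258), under all 20 alternatives. In MPPs Selp was above LT cells by 0.82 (95% CI 0.18 to 1.45), which did not pass by limma (adjusted p = 0.0790). Of 19 alternatives 4 called it: quantile normalisation (adjusted p = 0.0405), library weights (0.0351), the fit of only the groups compared (0.0472) and the fit without LT oil A (0.0445). Against ST cells the MPP difference was -0.46 (95% CI -1.10 to 0.17, limma adjusted p = 0.271).

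Gp1bb was near the floor. Its reads numbered 0, 0 and 0 in MPP oil, 5, 6 and 3 in LT oil, and 10, 1 and 6 in ST oil. For MPP oil, 3 reads over the group were taken as the most that a count of 0 allows. Against that limit, per read in listed genes, the 14 reads of LT oil were 4.68-fold higher and the 17 of ST oil 7.20-fold higher. The counting error of the 14 and 17 reads and the spread between libraries are left out, so these folds are not lower bounds. The MPP to ST difference of -1.24 on the log2 scale passed by limma (adjusted p = 0.0272) and under 11 of 17 alternatives. It was lost without ST oil A (0.165) or ST oil C (0.0655) and without any 1 MPP oil library (0.0622 to 0.0650). With a pseudocount of 5 it was also lost, at a log2 difference of -0.41 (limma adjusted p = 0.0639). The MPP to LT difference did not pass by limma (adjusted p = 0.127), but 3 of 17 alternatives called it: edgeR (0.0328) and DESeq2 (0.0186) on recovered reads and limma with library weights (0.0335). In a GENCODE annotation of GRCm38, 91.1% of the exon bases of Gp1bb are also exon bases of Sept5 on the same strand, and 41.5% of Gm49601. Neither neighbour was analysed here, so which gene these reads belong to is uncertain.

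**Figure D2:**
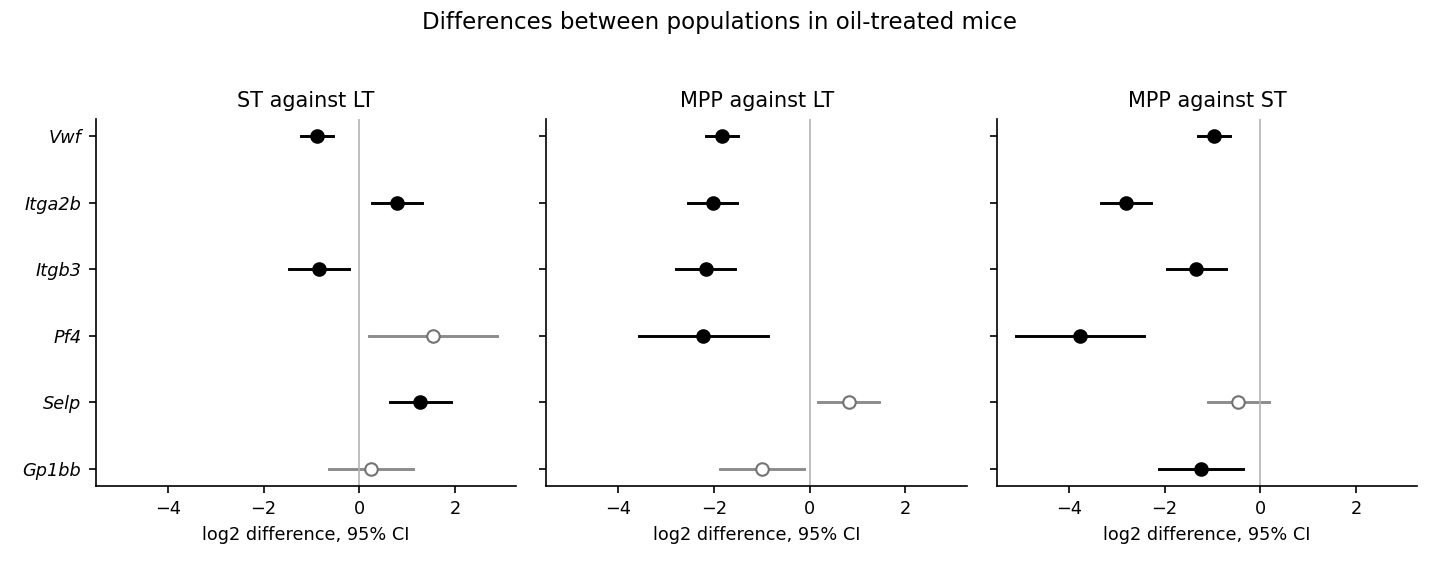
Log2 differences between the populations in oil-treated mice for the 6 genes, with 95% confidence intervals from limma (x axis, log2(value + 1) scale); filled black points passed the adjusted threshold of 0.05 and open points did not. The MPP differences against ST cells lie below 0 for all but Selp, whose interval spans 0, and the ST against LT differences point both ways.

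The order of the 6 groups differed between the genes. Itga2b ran from ST oil (63.7 ± 16.5) and ST tamoxifen (58.8 ± 16.4), which overlapped, through LT oil (35.9 ± 3.51) and LT tamoxifen (32.5 ± 14.4), which also overlapped, to MPP oil (8.04 ± 0.915) and MPP tamoxifen (5.28 ± 0.506), which did not (SD, n = 3). Itgb3 went in pairs from LT to ST to MPP, and only the tamoxifen and oil groups of a population overlapped as neighbours. For Pf4 each pair of neighbours overlapped except LT oil and MPP tamoxifen, in the order ST, LT and MPP with tamoxifen first each time. Selp ran from ST tamoxifen (23.9 ± 6.05), LT tamoxifen (18.5 ± 2.42) and ST oil (16.7 ± 7.26) through MPP oil (11.7 ± 5.09) and MPP tamoxifen (11.6 ± 1.29) to LT oil (6.11 ± 2.27), and only LT oil was apart from its neighbour.

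Whether a gene's groups overlap was counted over all genes as well. ST and LT oil did not overlap for 4 of the 6 genes (44.2% of all genes), MPP and LT oil for 6 of 6 (37.3%), and MPP and ST oil for 5 of 6 (45.3%). To set genes side by side, values were divided by the merged length of all annotated exons of a gene, in kilobases. That length covers every annotated transcript, used in these cells or not, and is of GRCm38, not of the NCBIM37 build named for the processing. The order of genes therefore depends on it. On this scale Vwf, Itga2b and Itgb3 were level in LT oil at 6.65 ± 1.00, 6.59 ± 0.643 and 6.77 ± 0.675 (SD, n = 3). Pf4 was higher there at 15.0 ± 4.39, and Selp lower at 1.38 ± 0.515. In ST oil the order had spread: Pf4 57.9 ± 43.7, Itga2b 11.7 ± 3.03, Itgb3 3.86 ± 1.47, Selp 3.77 ± 1.64 and Vwf 3.57 ± 0.379, of which the last 3 overlapped within their SD. In MPP oil the 5 genes lay between 1.38 ± 0.302 (Itgb3) and 2.65 ± 1.15 (Selp).

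Tamoxifen was compared with oil in each population and, as the mean of the 3 differences, over all of them. Selp rose in LT cells and in the mean of the 3 populations, and no other gene of the 6 passed in any of these comparisons. In MPPs 0 of 6 passed (0.0555% of all genes did), with 1 at an unadjusted p under 0.05, Itga2b, against 819 of all 14419 genes. In LT cells 1 of 6 passed (0.416% of all genes), in ST cells 0 of 6 (9.61% of all genes), and in the mean 1 of 6 (8.88% of all genes). At an unadjusted p under 0.05 stood 1 of the 6 in ST cells, against 3614 of all 14419 genes. In ST cells edgeR and DESeq2 on the recovered reads also called 0 of the 6, and likewise in MPPs. The median log2 difference of the 6 genes was 0.02 in MPPs, 0.48 in LT cells, 0.42 in ST cells and 0.28 in the mean, against medians over all genes of -0.00014, -0.02, 0.01 and -0.01.

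Selp, the P-selectin gene, stood at 21.3, 16.7 and 17.6 in LT tamoxifen, against 8.44, 3.90 and 5.99 in LT oil. Every tamoxifen library was above every oil library, on 187 against 75 reads in all, and the ratio of means was 3.03. The log2 difference was 1.50 (SE 0.31, 95% CI 0.87 to 2.13, limma adjusted p = 0.0220), or 2.83-fold on the log2(value + 1) scale. It passed under 12 of the 17 alternatives with an adjusted p, which ranged from 0.00801 to 0.135. The call was lost without LT oil B (adjusted p = 0.123), LT oil C (0.110) or LT tamoxifen A (0.0583), when only the LT libraries entered the fit (0.135), and without limma's trend and robust settings (0.0867). In ST cells Selp stood at 26.7, 17.0 and 28.1 with tamoxifen and 9.71, 16.1 and 24.2 with oil, so the groups overlapped, and the log2 difference of 0.55 did not pass (95% CI -0.08 to 1.19, limma adjusted p = 0.271). In MPPs it stood at 12.9, 10.3 and 11.6 with tamoxifen, inside the range of oil, with a log2 difference of 0.05 (95% CI -0.58 to 0.69, 0.997). The mean over the populations was 0.70 (SE 0.18, 95% CI 0.34 to 1.07, limma adjusted p = 0.0135) and passed under all 29 alternatives, at adjusted p from 0.00543 to 0.0402. That mean includes the LT difference, so the calls in LT cells and in the mean are not independent. The Selp call between ST and LT cells in oil also rests on the same LT oil libraries. Antisense transcripts Gm16587 and Gm16548 overlap 4.22% and 9.93% of the Selp exon bases, average 0.956 and 1.36 in the table, and cannot be told from Selp where they overlap, since the sources used here do not state the strand setting.

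Vwf stood at 162, 149.9 and 191 in LT tamoxifen, against 109, 122 and 89.8 in LT oil, without overlap and with a ratio of means of 1.57. The log2 difference was 0.65 (SE 0.16, 95% CI 0.31 to 0.98), and its adjusted p of 0.0663 by limma missed the threshold. Of 18 alternatives 3 called it: library weights (adjusted p = 0.0227), DESeq2 on recovered reads (0.00726) and the fit without LT tamoxifen B (0.0370). In ST cells Vwf stood at 82.8, 64.7 and 84.9 with tamoxifen and at 64.0, 56.2 and 52.0 with oil, and the lowest tamoxifen library lay just above the highest oil library. The log2 difference there was 0.42 (SE 0.16, 95% CI 0.09 to 0.75, limma adjusted p = 0.101), called by none of 19 alternatives. In MPPs it stood at 20.0, 27.1 and 26.7 with tamoxifen, overlapping oil, with a log2 difference of -0.24 (95% CI -0.57 to 0.09, 0.936). The mean over the 3 populations was 0.28 (95% CI 0.08 to 0.47, limma adjusted p = 0.0641), called by 5 of 29 alternatives. With all 6 groups set in order, the means of Vwf ran from 168 ± 21.2 in LT tamoxifen through 107 ± 16.0 in LT oil, 77.4 ± 11.1 in ST tamoxifen and 57.4 ± 6.09 in ST oil to 29.1 ± 3.61 in MPP oil and 24.6 ± 3.98 in MPP tamoxifen (SD, n = 3). The last 2 groups of that order overlapped and the other neighbours did not.

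**Figure D3:**
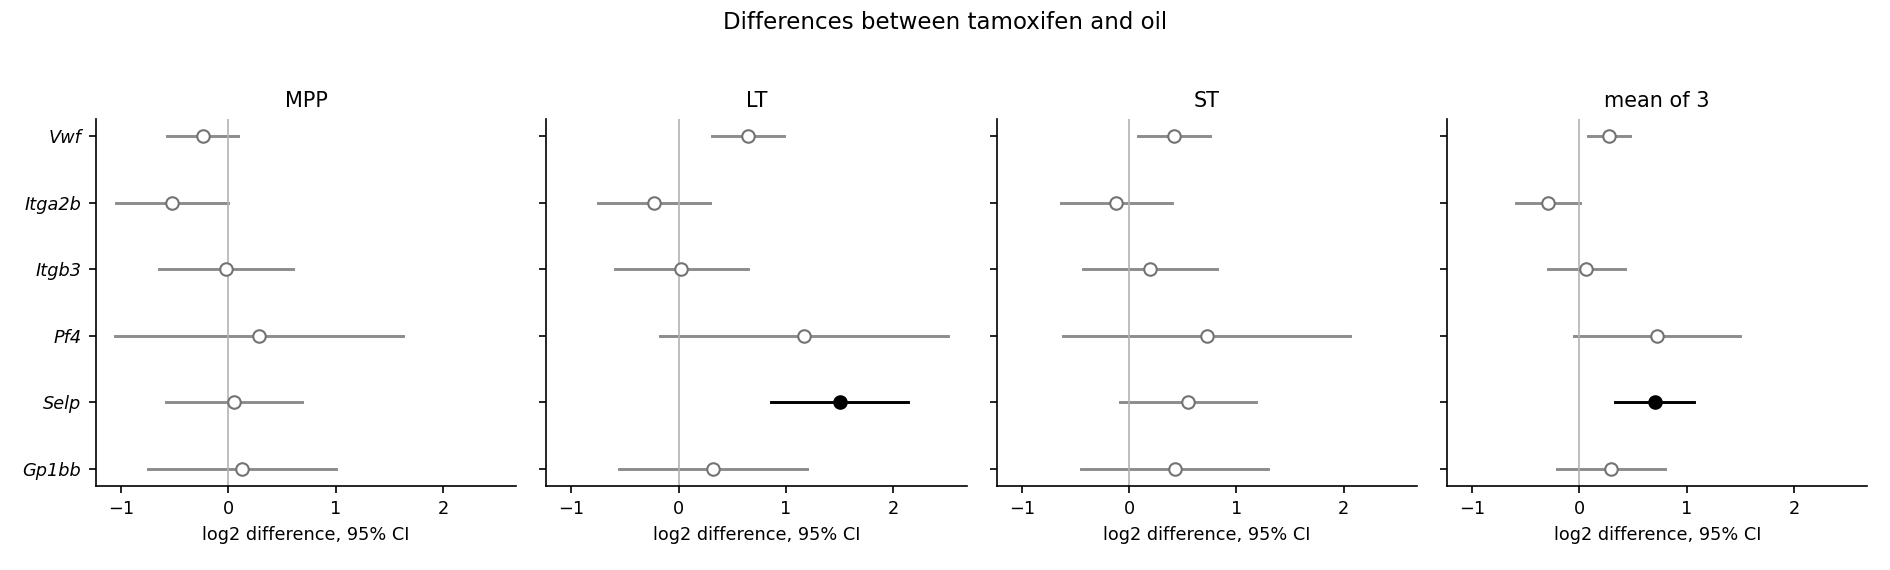
Log2 difference between tamoxifen and oil for the 6 genes in MPPs, LT cells, ST cells and the mean of the 3, with 95% confidence intervals from limma (x axis, log2(value + 1) scale); filled black points passed the adjusted threshold of 0.05. Only Selp is filled, at 1.50 in LT cells and 0.70 in the mean, and the Pf4 intervals are the widest.

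Itga2b was lower on average with tamoxifen in each population, without passing in any. In MPPs the tamoxifen libraries stood at 4.77, 5.78 and 5.28, all below the oil libraries at 7.02 to 8.78, and the log2 difference was -0.52 (95% CI -1.04 to -0.0037, limma adjusted p = 0.874). In LT tamoxifen Itga2b stood at 18.9, 31.0 and 47.7, a range that encloses LT oil, with a log2 difference of -0.23 (95% CI -0.75 to 0.29, 0.752). In ST tamoxifen it stood at 54.6, 45.0 and 76.9 against 57.8, 82.3 and 50.9 in oil, a difference of -0.12 (95% CI -0.64 to 0.40, 0.814). The mean was -0.29 (95% CI -0.59 to 0.01, limma adjusted p = 0.225).

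Itgb3 stood at 38.5, 31.5 and 54.9 in LT tamoxifen, at 30.2, 17.9 and 28.9 in ST tamoxifen and at 4.16, 10.3 and 11.0 in MPP tamoxifen, overlapping oil each time. Its log2 differences were 0.03 in LT cells (95% CI -0.60 to 0.65), 0.19 in ST cells (95% CI -0.43 to 0.82) and -0.02 in MPPs (95% CI -0.64 to 0.60), with limma adjusted p of 0.981, 0.739 and 0.998.

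Pf4 stood at 11.2, 28.7 and 47.1 in LT tamoxifen against 11.6, 13.6 and 7.38 in LT oil. LT tamoxifen B and C were above all LT oil libraries and A, the library that stood apart, was not. The log2 difference was 1.16 (95% CI -0.18 to 2.51, limma adjusted p = 0.451). In ST tamoxifen Pf4 stood at 50.6, 35.6 and 90.0, overlapping oil, with a difference of 0.72 (95% CI -0.62 to 2.06, 0.516), and in MPP tamoxifen at 2.54, 3.52 and 0.713, a difference of 0.29 (95% CI -1.06 to 1.63, 0.994). Gp1bb had 2, 0 and 0 reads in MPP tamoxifen, 4, 2 and 15 in LT tamoxifen, and 5, 11 and 13 in ST tamoxifen. Its log2 differences between 0.13 and 0.43 did not pass in any population (limma adjusted p = 0.995, 0.800 and 0.571 in MPPs, LT and ST cells).

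The non-overlap of tamoxifen and oil was also near the level of all genes. In MPPs 1 of the 6 genes had groups that did not overlap (Itga2b, 14.9% of all genes), in LT cells 2 (Selp and Vwf, 18.4%) and in ST cells 1 (Vwf, 27% of all genes).

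Whether the tamoxifen effect differed between populations was tested as the difference of the 2 effects, and 0 of the 6 genes passed in each of the 3 tests. Of all genes, 0.0555% passed for ST minus LT, 0% for MPP minus LT and 0.00694% for MPP minus ST. The counts of the 6 at an unadjusted p under 0.05 were 1, 2 and 1, against 1860, 808 and 1742 of all 14419 genes. No alternative, edgeR and DESeq2 included, called any of the 6. For Vwf the effect in MPPs minus that in LT cells was -0.89 on the log2 scale (95% CI -1.36 to -0.41, limma adjusted p = 0.493). For Selp it was -1.45 (95% CI -2.34 to -0.55, limma adjusted p = 0.748), and the effect in ST minus that in LT cells was -0.95 (95% CI -1.85 to -0.05, 0.363). The Selp call in LT cells and its absence in ST cells therefore do not show a difference between the populations.

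Within groups the libraries differed from their means in a shared way for some of the genes. LT tamoxifen C was the highest of its group for Vwf, Itga2b, Itgb3, Pf4 and Gp1bb, and ST oil B the highest of its group for Itga2b, Itgb3 and Pf4. ST oil C was the lowest for Vwf, Itga2b, Itgb3 and Pf4 and the highest for Selp. Over the 18 deviations from group means, of log2(value + 1), Pearson's r was 0.76 between Itga2b and Pf4, 0.73 between Vwf and Itgb3 and 0.56 between Itga2b and Itgb3. Selp had r between -0.25 and 0.07 with the other 5 genes. Over the 18 levels themselves r was 0.92 for Itga2b with Pf4 and 0.94 for Vwf with Itgb3, values that include the differences between the populations. Over the deviations, genes outside this set came closer to Itga2b (Snrpd2, r = 0.91) and Pf4 (Ngfrap1, 0.91) than these came to each other. The same held for Vwf (Fxr2, 0.79) and Itgb3 (Mfsd2b, 0.82). Those outside genes were picked for high r from a search over many genes, while the pairs within the set came from few. The comparison therefore cannot tell whether such shared deviations were particular to the genes followed here. All pairs share their libraries and depth, so these are descriptions.

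**Figure D4:**
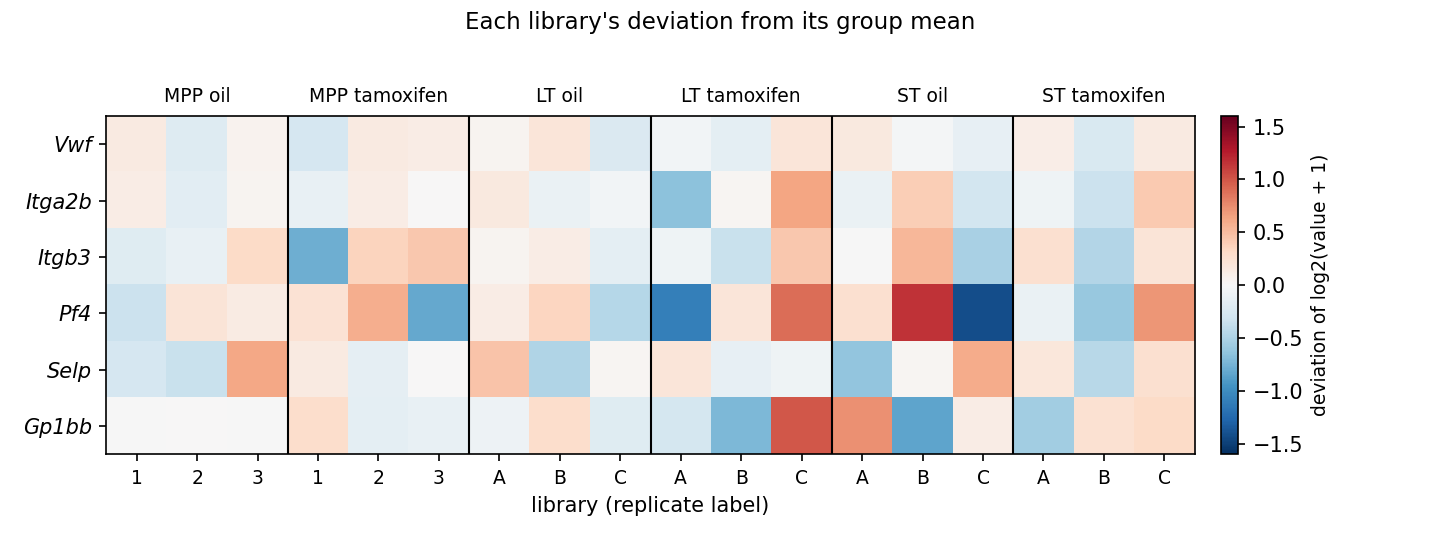
Deviation of log2(value + 1) of each library (columns, by group and replicate label) from its group mean for the 6 genes (rows), red above and blue below. Pf4 had the largest deviations, and its red and blue cells in LT tamoxifen and ST oil recur in the Itga2b row, while the Selp row differs.

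Among genes at or above the median level, the 3 closest to each gene by Pearson's r over the 18 libraries were listed as a description. Vwf was closest to Sept8 (r = 0.95), Tgfbr3 (0.95) and Plxnc1 (0.95), and Itgb3 to Vwf (0.94), Mfsd2b (0.93) and Shank3 (0.93). Itga2b was closest to Apoe (0.93), BC037034 (0.92) and Slc7a8 (0.92), and Pf4 to Mrpl52 (0.93), Adsl (0.93) and Hmgb3 (0.93). For Selp the closest were Rnaset2a (0.83), Ccdc41 (0.83) and Eif2a (0.82), and for Gp1bb Rrp15 (0.87), Bysl (0.86) and Ddx39 (0.81). Of these, Mfsd2b with Itgb3 (0.82) and Apoe with Itga2b (0.80) had the highest r over the deviations from group means. Next came Mrpl52 with Pf4 (0.74), Rrp15 with Gp1bb (0.74), Vwf with Itgb3 (0.73), Adsl with Pf4 (0.72) and Bysl with Gp1bb (0.70).

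The other genes of platelet biology were taken from 5 lists that together held 101 analysed genes besides the 6. In MPPs none passed between tamoxifen and oil by limma, edgeR or DESeq2, with 9 at an unadjusted limma p under 0.05, against 819 of all 14419 genes. In LT cells 1 rose and none fell (0.990% of the 101, against 0.416% of all genes), and in ST cells 11 rose and 1 fell (11.9%, against 9.61% of all genes). In the mean of the populations 7 rose and 4 fell (10.9%, against 8.88% of all genes). The calls over all genes also leaned upward, with 867 higher and 519 lower in ST cells and 789 higher and 491 lower in the mean. In LT cells they were 20 higher and 40 lower. The median log2 differences of the 101 were -0.02, -0.04, 0.16 and 0.05 in that order. In LT cells edgeR called 1 and DESeq2 3 of the 101. The ST count was 5 without ST tamoxifen C and 19 with LT tamoxifen A left out of the shared fit.

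Of 20 genes of platelet granules 5 rose and none fell in ST cells, against 9.61% of all genes called, and edgeR and DESeq2 on the recovered reads called 4 each. F5, the gene of coagulation factor V, stood at 13.9, 25.9 and 23.5 in ST tamoxifen against 6.09, 6.79 and 7.48 in ST oil, a log2 difference of 1.46 (limma adjusted p = 0.00238). It was also the gene that rose in LT cells, from 10.9 ± 3.45 to 29.5 ± 9.40 (SD, n = 3, log2 difference 1.35, limma adjusted p = 0.0276). That LT call was lost without LT oil B (adjusted p = 0.0867), LT oil C (0.215), LT tamoxifen A (0.0912) or LT tamoxifen C (0.0678), when only the LT libraries entered the fit (0.186), and without limma's trend and robust settings (0.0863). Thbs1, whose product thrombospondin 1 is an adhesive alpha granule protein, stood at 12.4, 17.6 and 18.6 in ST tamoxifen against 1.15, 0.497 and 0.440 in ST oil, a log2 difference of 3.34 (limma adjusted p = 0.0140), lost without ST tamoxifen C (0.0544). Ppbp, which encodes a platelet chemokine, stood at 4.12, 4.43 and 3.21 in ST tamoxifen on 42 reads, against 0.494, 0.828 and 0.147 in ST oil on 3 reads, a log2 difference of 1.74 (limma adjusted p = 0.00633). In the mean of the populations, where 8.88% of all genes were called, 4 of the 20 rose, led by F5 (log2 difference 1.08, limma adjusted p = 0.000253), Vegfa (0.81, 0.000700) and Thbs1 (2.77, 0.00191), each under all 29 alternatives.

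**Figure D5:**
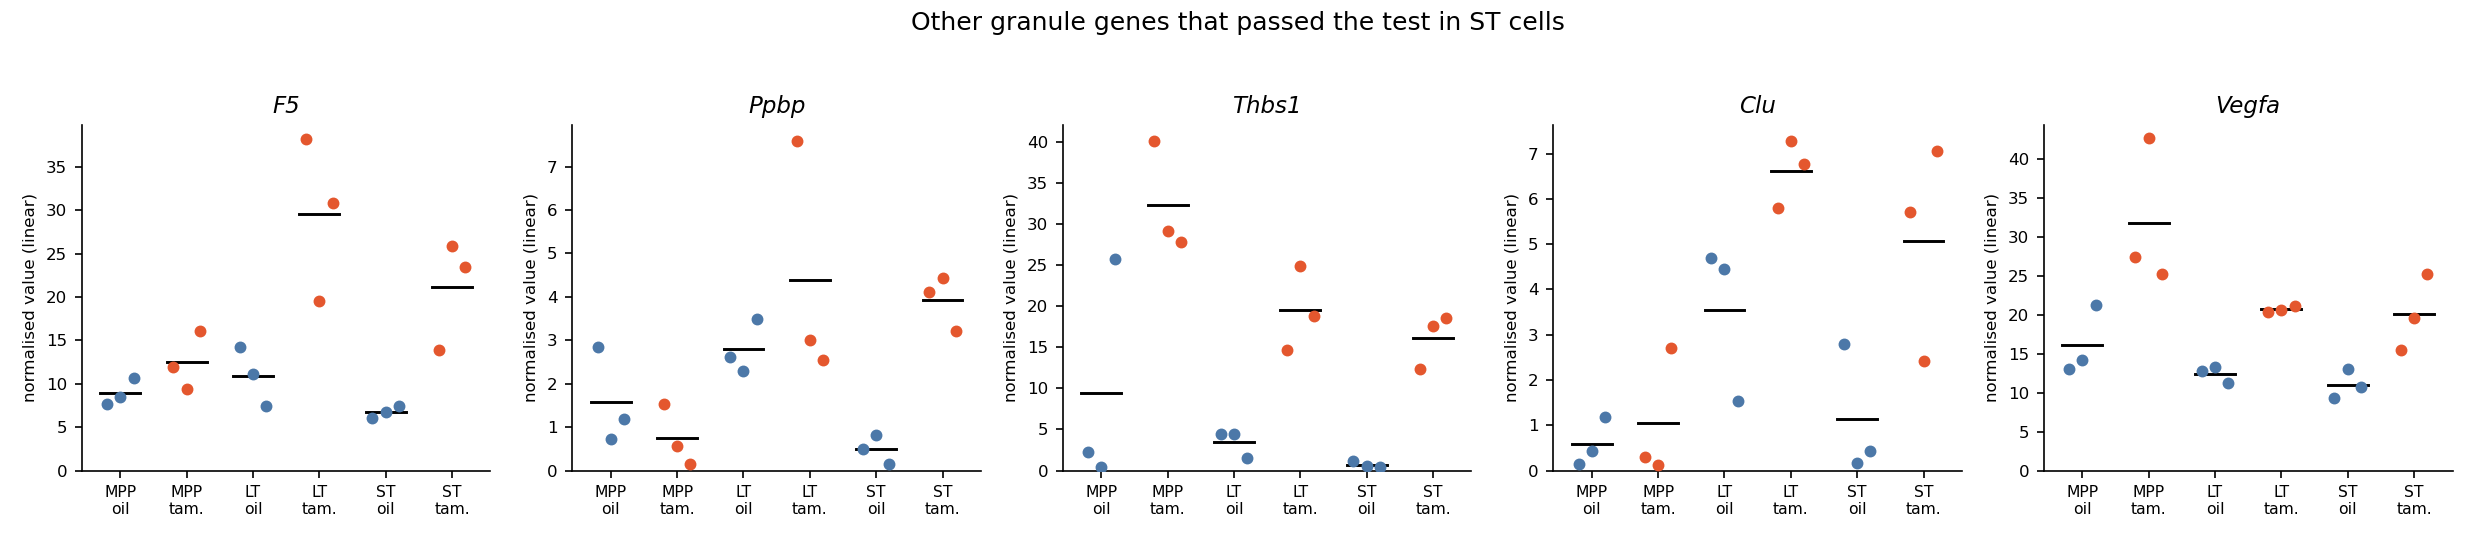
Normalised value (linear, 1 scale per gene) of the 5 other granule genes that passed between tamoxifen and oil in ST cells, in every library; points are libraries, blue for oil and red for tamoxifen, and lines are the means of 3. Thbs1 in ST tamoxifen lies at 12.4 to 18.6 against 0.440 to 1.15 in ST oil, while Clu in ST tamoxifen B lies below ST oil A.

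Of 25 genes of platelet signalling and cytoskeleton, 3 rose in ST cells, against 9.61% of all genes called: Flna (filamin A), from 176 ± 16.1 to 261 ± 16.1 (log2 difference 0.57, limma adjusted p = 0.00362), Tln1 (talin 1), from 280 ± 12.6 to 393 ± 48.0 (0.48, 0.00802), and Rap1b, a small GTPase of integrin activation, from 126 ± 11.2 to 192 ± 51.7 (0.58, 0.0181; SD, n = 3). Quantile normalisation ended the calls of Flna (adjusted p = 0.0607), Tln1 (0.178) and Rap1b (0.0762). Without ST tamoxifen C the calls of Tln1 (0.0639) and Rap1b (0.159) were also lost, and that of Rap1b without ST oil A (0.0749), ST oil C (0.0507) or ST tamoxifen B (0.0537), or without limma's trend and robust settings (0.0680). Of 12 genes near von Willebrand factor and the integrins in function, 2 rose in ST cells, and Snap23, a membrane fusion protein of granule release, did so under all 19 alternatives (log2 difference 0.73, limma adjusted p = 0.00589). The other was Itgb1, the integrin beta 1 gene (0.50, 0.0483), called under 10 of 19, with adjusted p up to 0.272 without ST tamoxifen C.

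None of the 21 other surface receptor genes passed by limma in a single population, with 0, 4 and 3 at an unadjusted p under 0.05 in MPPs, LT and ST cells. Of all 14419 genes, 819, 1952 and 3614 did so. DESeq2 on the recovered reads called 1 in LT cells, and edgeR none. In the mean of the populations, where 8.88% of all genes were called, 2 fell: Itga2, the alpha subunit of the platelet collagen integrin (log2 difference -0.69, limma adjusted p = 0.0203), and Pear1 (-0.35, 0.0276). The Itga2 call was lost without LT oil C (0.0529). The Pear1 call was lost under 8 of 29 alternatives, at adjusted p up to 0.0788. Of 23 megakaryocyte transcription factors 1 rose and 1 fell in ST cells, where 9.61% of all genes were called: Srf (log2 difference 0.69, limma adjusted p = 0.0428, called under 9 of 19 alternatives) and Meis1 (-0.37, 0.0318, under 12 of 19). Leaving out ST oil A ended both calls (adjusted p = 0.173 for Srf and 0.0994 for Meis1), as did ST tamoxifen A (0.188 and 0.0717). Srf was also lost without ST oil C (0.118) or ST tamoxifen C (0.0852), and Meis1 without ST oil B (0.0821) or ST tamoxifen B (0.122). In the mean 2 of the 23 fell, against the same 8.88% of all genes. Cbfa2t3, a corepressor of the GATA and TAL1 complexes, fell by 0.34 on the log2 scale (limma adjusted p = 0.00552), under all 29 alternatives. Meis1 fell by 0.21 (0.0398), under 16 of 29, with adjusted p up to 0.0984.

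The same 101 genes were compared between populations in oil. In ST against LT cells 10 were higher and 33 lower (42.6%, against 28.5% of all genes), in MPPs against LT cells 14 were higher and 34 lower (47.5%, against 14.8%), and in MPPs against ST cells 16 were higher and 27 lower (42.6%, against 30.7%). Over all genes the calls were 1802 higher and 2302 lower in ST against LT cells. They were 1119 higher and 1011 lower in MPPs against LT cells, and 2423 higher and 2007 lower in MPPs against ST cells. Of the 23 transcription factors 13 were lower and 1 higher in ST than in LT cells, led by Tal1 (log2 difference -0.98, limma adjusted p = 1.07e-05). Of the surface receptors 12 of 21 were lower and 2 higher in MPPs than in LT cells, led by the adhesion molecule Esam (-2.31, limma adjusted p = 1.57e-06). Zfpm1, the GATA cofactor FOG1, averaged 98.5 ± 3.52 in LT oil and 21.7 ± 3.85 in MPP oil (log2 difference -2.14, limma adjusted p = 7.73e-09).

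Markers of other cells that a sort can hold were summed per library. Of 8 megakaryocyte and platelet markers 6 were analysed (Ppbp, Gp9, Gp5, Gp1ba, Treml1 and Clec1b), and their sum ran from 15.0 to 20.5 in MPP oil and 10.9 to 16.9 in MPP tamoxifen. In LT cells it was 37.0 to 52.5 with oil and 53.5 to 55.9 with tamoxifen, and in ST cells 37.5 to 53.7 and 50.9 to 56.6. Only Ppbp passed between tamoxifen and oil in ST cells (9.61% of all genes did) and none did in LT cells (0.416% of all genes). Vwf and Selp are also made by endothelium. Of 15 endothelium markers 12 were analysed, with sums of 329 to 350 in MPP oil and 309 to 342 in MPP tamoxifen. Cdh5, Lyve1 and Fabp4 were not found by symbol, so the sums leave them out. In LT cells they were 422 to 465 with oil and 373 to 418 with tamoxifen, and in ST cells 231 to 287 and 295 to 328. Of these 12 only Tek passed in ST cells (log2 difference 0.81, limma adjusted p = 0.0208), where 9.61% of all genes were called. Tek was also the only 1 to pass in the mean of the populations (0.44, 0.0302), against 8.88% of all genes. Log2 differences were above 0 for 11 of the 12 in ST cells but for 3 in LT cells (median -0.09), where none passed. The part of these cells in the results was not tested.

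Erythroblast markers (7 of 8 analysed) summed to 82.2 to 98.4 in LT cells with oil and 109.6 to 127 with tamoxifen, without overlap. That sum does not stand for the list. Of the 7 markers 4 had log2 differences above 0 in LT cells, and none had an unadjusted limma p under 0.05. In ST cells the sums were 36.4 to 41.8 and 37.3 to 68.4, and in MPPs 11.2 to 33.9 and 15.3 to 311. Klf1, an erythroid factor, rose in ST cells (log2 difference 1.33, limma adjusted p = 0.0310), where 9.61% of all genes were called. It was the only 1 of the 7 to pass there, and 4 of the 7 had log2 differences above 0. Mast cell and basophil markers (6 of 8) summed to 94.4 to 139 in ST cells with oil and 64.9 to 113 with tamoxifen, and Cpa3 fell there by 1.24 on the log2 scale (limma adjusted p = 0.0126). The sum and Cpa3 do not stand for the list, since 5 of these 6 markers had log2 differences above 0 in ST cells (median of the 6, 0.78). Of the 8 stem and progenitor markers only Kit passed in LT cells, where 0.416% of all genes were called, and it fell by 0.55 on the log2 scale (limma adjusted p = 0.0159). In the mean of the populations, where 8.88% of all genes were called, 4 of these 8 fell: Kit (log2 difference -0.37, limma adjusted p = 0.000620), Cd48 (-0.62, 0.00358), Cd34 (-0.50, 0.0287) and Flt3 (-0.85, 0.0317). There Cpa3 fell too (-1.04, limma adjusted p = 0.000807), while the erythroid genes Klf1 (0.73, 0.0408) and Epor (0.56, 0.0475) rose. In the mean too, 5 of the 6 mast cell and basophil markers lay above 0 (median log2 difference 0.16). The sums of the stem and progenitor list in LT cells were 1928 to 2176 with oil and 1353 to 1582 with tamoxifen. The part of these shifts in the Selp and Vwf values was not tested.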

How the data were processed

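RNA of sorted LT, ST and MPP cells was measured in 18 libraries, 3 in each of 6 groups taken from the sample labels. Per the labels' protocols, Picopure RNA was turned into amplified cDNA (Ovation RNA-Seq System V2), which was sonicated and ligated to adaptors. The submitters' processing notes name RSEM 1.17, limma, cutadapt and Picard, and the build NCBIM37. How the table was scaled, and with which strand setting reads were counted, was not found in the sources used here. The deposited table holds a normalised signal on a linear scale. Dividing by 1 constant per library and subtracting 0.5 turned each entry into a whole read number (100% of values within 0.001 read), so reads were recovered from it. RSEM gives fractional counts, so the recovered reads may be rounded estimates. The limit of 3 reads for a count of 0 covers counting error only, since amplified reads without molecular identifiers are not independent molecules.

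The main test was limma 3.58.1 in R 4.3.3 on log2(value + 1). It modelled a mean for each of the 6 groups from the 18 libraries together (12 residual degrees of freedom), with trend and robust moderation (statmod 1.5.0). Calls used a Benjamini-Hochberg adjusted p under 0.05 over 14419 genes. A filter (1 or more in 3 libraries) removed no gene, since every gene reached 1 in at least 6. Fold changes on this scale understate changes of low genes. Alternatives were a stricter filter, pseudocounts of 0.5 and 5, quantile normalisation, TMM rescaling, other limma settings, a replicate block, edgeR 4.0.16 and DESeq2 1.42.0 on recovered reads, and leaving out each library. A shared fit without LT tamoxifen A and a replicate block shared by LT and ST cells were added after seeing the data. Libraries of 1 group differed by more than sampling noise (lowest chi-square per degree of freedom 2.72).

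Named genes are the 6 genes, the 3 most alike to each over the libraries, and from each list of platelet genes up to 3 that passed, those of lowest p. Snrpd2, Ngfrap1 and Fxr2 are named for their likeness over the deviations from group means. The 6 genes and all lists were chosen with earlier results of these data known. Promoters came from RefSeq (GRCm38.p6), with 250 bases upstream used, and exon lengths, merged over all annotated exons of a gene, from GENCODE. No coordinate was converted between builds.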

Additional observations from a re-analysis of the deposited data

How the results depend on the processing

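Over the alternatives, 1174 of 1275 values for single genes of the 6 kept their direction and their side of the threshold, 54 that passed in neither fit changed sign, 19 passed only under the alternative, 28 no longer passed, and no called value reversed. For LT tamoxifen against oil the count of called genes among the 6 was 1, and it was 0 without trend and robust settings, 0 when only the groups compared were fitted, 2 with library weights, and 0 to 2 leaving out each library. For the mean tamoxifen effect the count was 1, and it was 2 with a pseudocount of 5, 2 with library weights and 1 to 2 leaving out each library. For ST against LT cells in oil the count was 4, and 2 to 4 leaving out each library.

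Of the 101 other platelet genes the LT tamoxifen count of 1 ranged from 0 to 3, the ST count of 12 from 5 to 19 and the count of 11 in the mean from 5 to 15. Over all genes, the counts ranged from 0 to 67 in MPPs (8 called), 3 to 336 in LT cells (60), 654 to 2121 in ST cells (1386) and 789 to 1922 in the mean (1280). The causes were not tested. Replicate labels are shared across groups, but labels alone were not taken to pair the libraries. Over the 9 pairs of oil and tamoxifen libraries within a population the correlation of deviations ran from -0.033 to 0.126, and 3 of the 9 correlated best with their own label. Over the 6 pairs of LT and ST libraries of 1 treatment and letter it ran from 0.052 to 0.137, over 0.1 in 2, and all 6 correlated best with their own letter, a hint from the data and not from the design. With a replicate block shared by those pairs, added after seeing the data, 5 of the 6 genes were called between ST and LT cells in oil, Pf4 being the one gained (log2 difference 1.55, limma adjusted p = 0.00544), and none for the tamoxifen effect in ST minus that in LT cells. Over all genes the latter count was 125, against 8 without it. With the replicate block the counts among the 6 were 1 for LT tamoxifen, 4 for ST against LT cells, 3 for MPPs against LT cells, where Pf4 was lost, and 5 for MPPs against ST cells. DESeq2 gave no adjusted p for Selp in LT cells, and that alternative was left out. Low depth limits Gp1bb in all groups (0 to 15 reads per library) and Pf4 in MPPs (2 to 15).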
